A study of Arabidopsis thaliana with 22 samples.

Results

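Acetylation of histone H3 at lysine 14 (H3K14Ac) was mapped by chromatin immunoprecipitation and sequencing (ChIP-seq) in wild-type Col-0 Arabidopsis, with ethylene and in air. The members are all peaks of the 2 Col-0 H3K14Ac peak lists, chosen by antibody, genotype and treatment: 15317 peaks with ethylene and 3011 in air, 18328 of the 105488 peaks in the 10 lists of the series. Both groups were whole 3-day-old etiolated plants (Col-0, kept in darkness) exposed for 4 h, one to hydrocarbon-free air and the other to the same air with 10 p.p.m. ethylene. Neither carries a mutation or a transgene, and whole seedlings mix all organs and cell types of the etiolated plant, so a change in few cells and a small change in many cannot be told apart. Each treatment had 1 H3K14Ac library and 1 IgG control, so no spread between replicates could be measured and no test between treatments was run. A peak was called shared if at least 1 bp of it lay in a peak of the other list, and unshared otherwise.

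Histone acetyltransferases such as GCN5 place acetyl groups on lysines of the H3 tail, and histone deacetylases remove them. The mark sits on nucleosomes at the 5′ end of transcribed genes and is generally found with active transcription. Ethylene is a gaseous hormone that gives dark-grown seedlings a short, thick hypocotyl and an exaggerated apical hook. Its receptors keep the kinase CTR1 active in air. When ethylene binds, CTR1 stops phosphorylating EIN2, the C-terminal end of EIN2 enters the nucleus, and the transcription factors EIN3 and EIL1 induce their targets. The comparison addresses where H3K14Ac peaks were called with ethylene and where in air.

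The summits, the positions of highest pileup, lay mostly in coding sequence, and 5 of them are shown because the gene position of a peak is read at its summit. Each window holds 101 bases centred on the summit, read 5′ to 3′ on the strand of the gene, from the RefSeq sequence of TAIR10.1, and the 11 bases around the summit are in capitals. All 101 bases are coding in each window. The windows come in this order: the peak of smallest P in the ethylene list, which was shared (AT5G67290, a FAD-dependent oxidoreductase, chr5:26849408-26849508, minus strand); the peak of smallest P without an air counterpart (PPOX, AT4G01690, annotated as a flavin-containing amine oxidoreductase, chr4:730035-730135, plus strand); the highest ranked such peak on an ethylene signalling gene (EBF1, AT2G25490, chr2:10849636-10849736, minus strand); and the air peak of smallest P without an ethylene counterpart (At17.1, AT2G01340, chr2:164408-164508, plus strand), followed by that of the DELLA gene RGL3 (AT5G17490, chr5:5764417-5764517, minus strand).
AT5G67290: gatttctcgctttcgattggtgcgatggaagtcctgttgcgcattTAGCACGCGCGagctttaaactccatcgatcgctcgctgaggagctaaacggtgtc
PPOX: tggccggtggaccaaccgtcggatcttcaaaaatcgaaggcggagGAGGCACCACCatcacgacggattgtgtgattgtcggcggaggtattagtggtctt
EBF1: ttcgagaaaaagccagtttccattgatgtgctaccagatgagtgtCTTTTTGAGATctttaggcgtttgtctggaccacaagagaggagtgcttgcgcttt
At17.1: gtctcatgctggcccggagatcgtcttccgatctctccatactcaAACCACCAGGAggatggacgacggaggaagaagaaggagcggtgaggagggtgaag
RGL3: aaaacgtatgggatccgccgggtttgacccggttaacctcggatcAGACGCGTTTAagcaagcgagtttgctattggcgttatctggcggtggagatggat

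The GC content of these windows was 52.5% for AT5G67290, 55.4% for PPOX, 44.6% for EBF1, 57.4% for At17.1 and 52.5% for RGL3. Across the lists, coding windows of this length had a median GC content of 50.5% at shared ethylene summits (quartiles 47.5 and 54.5, 2439 summits) and of 47.5% at ethylene-only summits (43.6 and 51.5, 9587 summits). The air summits in coding sequence were at 51.5%, both the shared (2485) and the unshared ones (140). Coding windows 400 bp inside the start of all genes had a median of 44.6%, and the genome is 36.0% GC. Within the ethylene list the median fell with rank, from 51.5% in decile 1 to 46.5% in decile 10, so the windows of best ranked peaks were the richest in GC. The part of GC content in the calling of peaks was not tested.

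The ethylene list rested on 22575558 ChIP tags against 10479732 IgG tags, and the air list on 16981322 against 2438541. The larger library was scaled down to the smaller when peaks were called, and the IgG control was the smaller in both, so the control set how small an enrichment could pass. The lowest fold enrichment of a called peak, its pileup over the local background, was 1.35 with ethylene and 1.57 in air. The peaks covered 4.97% of the genome with ethylene and 0.79% in air. The mapped reads that the study lists for its IgG libraries put the air control above the ethylene control, the reverse of the order of these tags, and the cause was not tested. Because of the 4.30-fold difference in control tags, pileup and fold enrichment were not compared between the lists, and each peak was ranked within its own list by its −log10 P. A missing peak therefore says that the call was not reached at that depth, not that the mark was absent.

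Nearly all air peaks were found again with ethylene, and most ethylene peaks had no air counterpart. Of the air peaks, 2836 of 3011 overlapped an ethylene peak, and 175 (5.81%, 95% Wilson interval 5.03 to 6.71) did not. Of the ethylene peaks, 2783 of 15317 overlapped an air peak, and 12534 (81.8%, 81.2 to 82.4) did not. Wilson intervals cover counting error only. The rule rarely decided a peak by a few bases: 19 ethylene-only peaks lay within 100 bp of an air peak, the nearest at 11 bp, and 8 shared ethylene peaks overlapped by under 50 bp, the smallest overlap being 4 bp. The median distance from an ethylene-only peak to the nearest air peak was 11098 bp.

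The size of the unshared set depended on list length and depth. With both lists at 3011 peaks, the ethylene list being cut by −log10 P, 54.5% of ethylene peaks and 53.0% of air peaks were unshared. With equal lists and mostly one-to-one overlaps these shares must be close to each other, so their likeness is no result. With pileup and background at each ethylene summit scaled to the control tags of the air list, 6939 ethylene peaks still had a Poisson P of at most 0.01, of which 68.4% were unshared, and 25.1% of air peaks were unshared against them. Requiring a fold enrichment of at least 2 left 75.5% of ethylene peaks and 30.1% of air peaks unshared.

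Unshared peaks were most frequent at low ranks. In decile 1 of the ethylene list, 697 of 1532 peaks (45.5%, 43.0 to 48.0) had no air counterpart, and this share was 64.0% in decile 2, 86.7% in decile 5 and 95% in decile 10. In the air list, 1 of the 302 peaks of decile 1 (0.331%) lacked an ethylene counterpart, against 24 of 301 (7.97%) in decile 10. There the share did not climb steadily: it was 7.97% in decile 6 too and highest in decile 8, at 11.3%. The other 835 peaks of decile 1 of the ethylene list were shared.

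**Figure D1:**
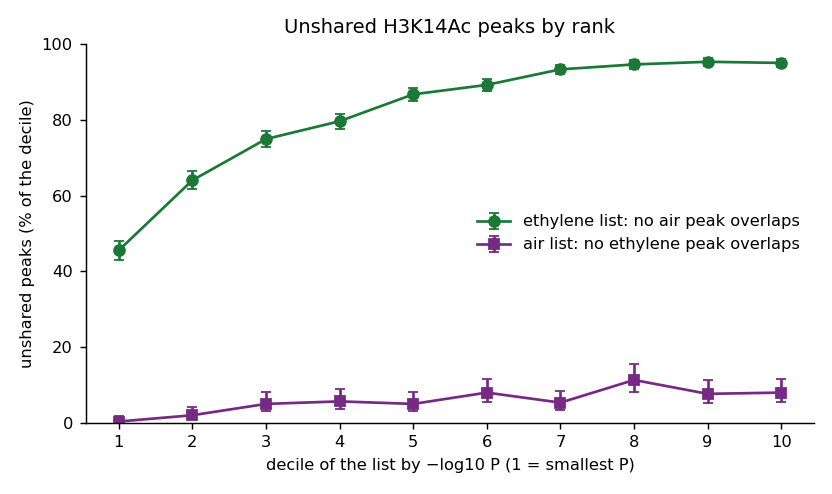
Share of peaks without a counterpart in the other list (vertical axis, %, bars are 95% Wilson intervals) by decile of −log10 P within each list (horizontal axis, 1 is the smallest P). The ethylene list climbs from 45.5% to 95%, while the air list stays between 0.331% and 11.3%.

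The best ranked ethylene-only peaks lay mostly in the 5′ part of genes with varied roles. The first was on PPOX, which belongs to the tetrapyrrole pathway of haem and chlorophyll: 567 bp (chr4:729899-730465), fold enrichment 3.95, −log10 P 25.67, rank 7 of the list, with its summit 222 bp from the gene start. The next were on AT4G00840, a DHHC-type zinc finger protein (rank 12, summit at 238 bp), AT3G02610, a stearoyl-acyl-carrier desaturase (rank 22, 1445 bp), AT5G51910, a TCP transcription factor (rank 28, 521 bp), and AT5G38360, an alpha/beta-hydrolase (rank 29, 225 bp). AT2G14825, annotated as histone deacetylase-like, held the peak of rank 41. AFB5, an F-box auxin receptor, held the peak of rank 42 (521 bp wide, fold enrichment 3.58), and HB24, a homeobox gene, that of rank 44. AT3G27110, a peptidase of family M48, and BAM7, of the beta-amylase family, completed the 10, at ranks 46 and 58. All 10 peaks were still called at the control depth of the air list. Their summits were 222 to 1445 bp from the gene start, 9 in coding sequence and 1, on BAM7, in the 5′ UTR by the annotation.

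The best ranked shared peaks of the ethylene list were on AT5G67290 (rank 1, 747 bp, fold enrichment 4.53, −log10 P 36.94), AT1G11930, a pyridoxal phosphate-dependent enzyme (rank 2), and AT1G43245, a SET domain protein (rank 3). AT3G18170, a glycosyltransferase of family 61, APY2, an apyrase that hydrolyses nucleotides, and ADT5, an arogenate dehydratase of phenylalanine synthesis, followed at ranks 4, 5 and 6. AT4G13270, AT4G27280 (an EF-hand calcium-binding protein), AT1G35430 and AT1G76880 (a homeodomain-like protein) took ranks 8 to 11. In air, the smallest P were on AT3G63390 (412 bp, fold enrichment 4.16, −log10 P 10.89), AT2G41410, another EF-hand protein, and ARO2, an armadillo repeat protein. AT1G55000, IBR10 (of indole-3-butyric acid response), emb1513, RIE1, EXO70F1 (an exocyst subunit), AT3G53430 (a ribosomal protein of the L11 family) and AT3G57790 stood at air ranks 4 to 10. No gene was among the first 10 shared peaks in both lists.

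Overlapping peaks were largely nested, with the ethylene peak the wider. Called width also depends on depth, so widths of the 2 lists are given side by side and their difference cannot be told apart from that in control tags. The shared peaks formed 2849 pairs. In 1926 pairs (67.6%) the air peak lay wholly inside the ethylene peak, and in 77 (2.70%) the reverse held. The ethylene peak was wider in 88.7% of pairs, with a median width ratio of 1.48 (quartiles 1.18 and 2.05). The summits of a pair were a median of 37 bp apart, and 83.6% of pairs had summits within 100 bp of each other. Only overlapping peaks form pairs, so a summit that lay far off would not be counted here. In 65 cases 1 ethylene peak spanned at least 2 air peaks. Of the 301 pairs whose air peak was in the top 10% of the air list, 165 also had an ethylene peak in the top 10% of its list. Of all 2783 shared ethylene peaks, 835 were in decile 1 of the ethylene list. Over all pairs the Spearman correlation of the 2 ranks was 0.23.

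Some pairs stood at opposite ends of the 2 lists. Because the lists differ in length, each rank is given as a percentile within its list, with 100 for the smallest P. GAE1, a UDP-glucuronate epimerase that makes a pectin precursor, had the largest difference in favour of ethylene: its air peak stood at percentile 0.166 (rank 3007 of 3011), and its ethylene peak at 99.7 (rank 50 of 15317). The next were on DIS2, an Arp2/3 complex subunit (the nearest gene; the summit lay in a gene that is not protein-coding; percentile 0.133 in air and 99.3 with ethylene), VPS46.2, a SNF7 family protein (0.465 and 98.1), and AT1G78310, a VQ motif protein with 2 air peaks under 1 ethylene peak (1.63 and 2.13 in air, 99.2 with ethylene). STP1, a sugar transporter, had the largest difference in favour of air, at percentile 96.7 in air and 1.7 with ethylene. It was followed by AT1G03220, an aspartyl protease (88.8 and 2.56), AT5G62350, a pectin methylesterase inhibitor-like protein (89.6 and 5.6), ABCG34, an ABC transporter (86.3 and 3.96), and AT3G42950, a pectin lyase-like protein (86.2 and 6.95). For GAE1, AT1G03220 and the AT1G78310 air peak at percentile 1.63, the ethylene summit lay outside the air peak. The 2 ranks of those pairs therefore belong to different sites under 1 ethylene peak. Each of the 10 pairs was chosen for its difference in standing, so these values are a description, and a standing within a list is no amount of the mark.

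Unshared peaks were narrower than shared ones. The median width in the ethylene list was 449 bp for shared peaks (quartiles 343 and 615.5) and 307 bp for ethylene-only peaks (245 and 414). In the air list it was 285.5 bp for shared peaks (238 and 354) and 236 bp for air-only peaks (216 and 272). Width went with rank, but ethylene-only peaks had the lower median in 10 of 10 deciles of the ethylene list, from 438 against 539 bp in decile 1 to 255 against 293.5 bp in decile 10.

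The widest peaks lay on genes of varied roles. Among shared peaks of the ethylene list these were AT5G56040, a leucine-rich repeat receptor kinase (2156 bp), AT5G01830, an ARM repeat protein (2041 bp), HCF243 (2002 bp), AT1G15830 (1918 bp) and QKY (1799 bp). Among ethylene-only peaks they were BRI1, the brassinosteroid receptor (2063 bp, chr4:18324824-18326886, rank 1257), AT5G62030, a diphthamide synthesis protein (2005 bp), AT1G26270, a phosphatidylinositol kinase (1632 bp), NCED3, which catalyses a key step of abscisic acid synthesis (1620 bp, rank 1003), and HAE, the receptor kinase HAESA of floral organ abscission (1597 bp, rank 1042). AT1G26270 was not called at the control depth of the air list, and the other 4 were. In air the widest shared peaks were on AT5G01830 again (1421 bp), AT4G29780, a nuclease (1290 bp), PDE331 (1161 bp), AT4G16490, an ARM repeat protein (1043 bp), and PLL5, of the POL-like phosphatases (1029 bp). The widest air-only peaks reached 781 bp, on ABCC4, and 636 bp, on AT3G27250, followed by CYP78A6 (489 bp), AT1G61890 of the MATE efflux family (476 bp) and AT1G68400, a receptor-like kinase (470 bp).

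**Figure D2:**
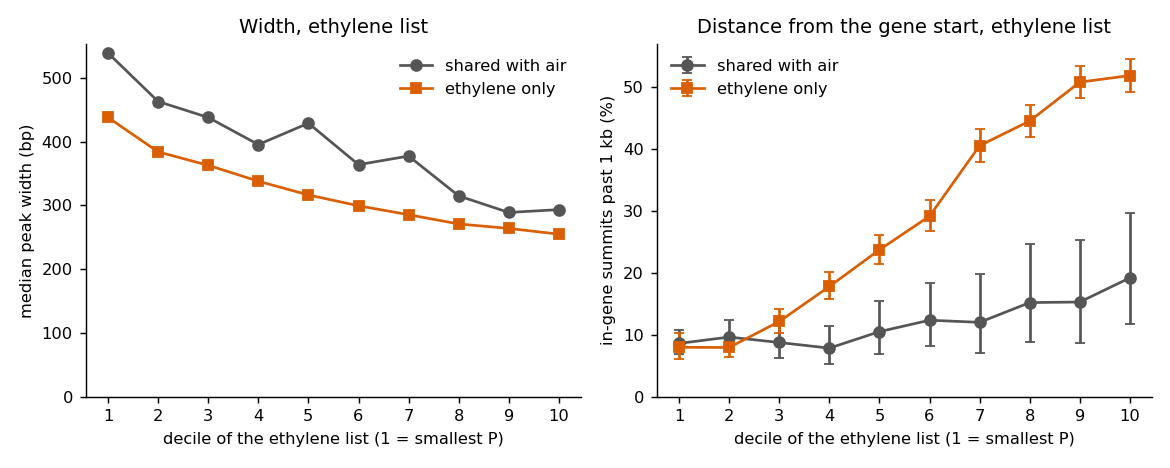
Median width in bp (left) and share of in-gene summits past 1 kb from the gene start in % (right, bars are 95% Wilson intervals) by decile of the ethylene list, for peaks shared with air and for ethylene-only peaks. Ethylene-only peaks are narrower in every decile, while their summits lie past 1 kb about as often as those of shared peaks in deciles 1 and 2 (7.98% and 8.61% in decile 1) and more often from decile 3 on, up to 51.8% against 19.2%.

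H3K14Ac summits lay in genes, close to their start. Of the shared ethylene peaks 98.2% had their summit in a protein-coding gene, of the ethylene-only peaks 95.7%, and of the air peaks 98.3% in both classes. By the annotation 87.6% of shared summits of either list were in coding sequence, which makes up 28.3% of the genome, against 76.5% (75.7 to 77.2) of ethylene-only summits and 80.0% (73.5 to 85.3) of air-only summits. Introns held 5.14% of shared and 10.7% of ethylene-only summits. The 5′ UTR held 5.35% and 7.35%, and the 3′ UTR 0.108% and 1.2%. Fewer than 1% lay in the 1 kb upstream of a gene (4 shared and 67 ethylene-only summits), although that class makes up 13.3% of the genome. Air-only peaks had 0 of 175 summits there (interval 0 to 2.15%), so upstream regions were nearly free of summits in all classes.

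**Figure D3:**
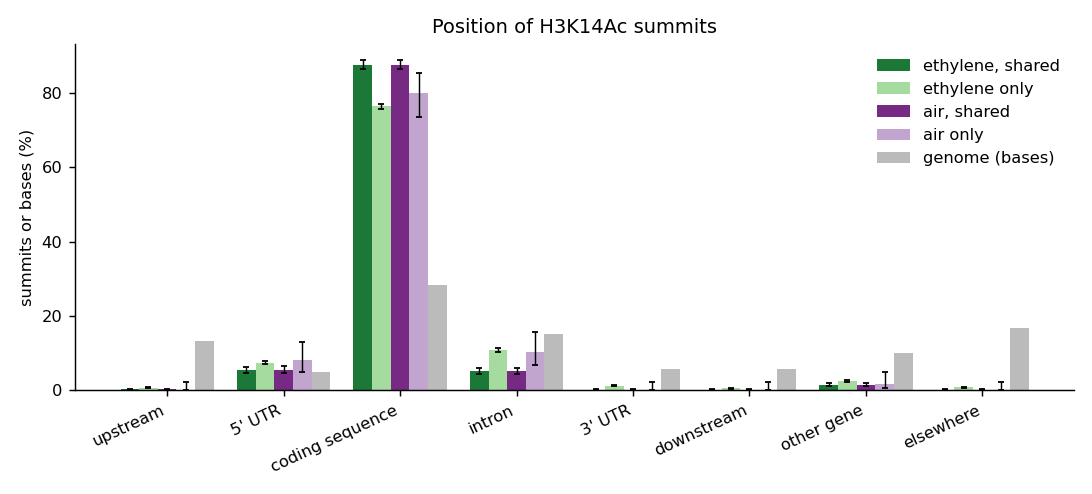
Share of summits in each position class (vertical axis, %, bars are 95% Wilson intervals) for the 4 peak classes, beside the share of genome bases in that class (grey). Coding sequence holds 87.6% of shared and 76.5% of ethylene-only summits against 28.3% of the genome.

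Ethylene-only peaks had a longer tail into the gene body than shared peaks. Shared peaks of the 2 lists overlap by the rule, so the likeness of their profiles along genes is no result. For summits inside genes, the median distance from the gene start was 404 bp for shared ethylene peaks (quartiles 299 and 608) and 403 bp for shared air peaks (300 and 612). It was 526 bp for ethylene-only peaks (318 and 1253) and 430 bp for air-only peaks (290 and 908). The most populated 100-bp bin was 300 to 400 bp for both shared classes, with 23.9% and 24.4% of summits, and 200 to 300 bp for the unshared classes, with 17.0% and 19.8%. Summits past 1 kb made up 9.88% (8.81 to 11.1) of shared ethylene summits and 31.1% (30.3 to 31.9) of ethylene-only summits. In genes of at least 3 kb these shares were 13.6% and 41.7%, so the difference was also present among long genes.

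**Figure D4:**
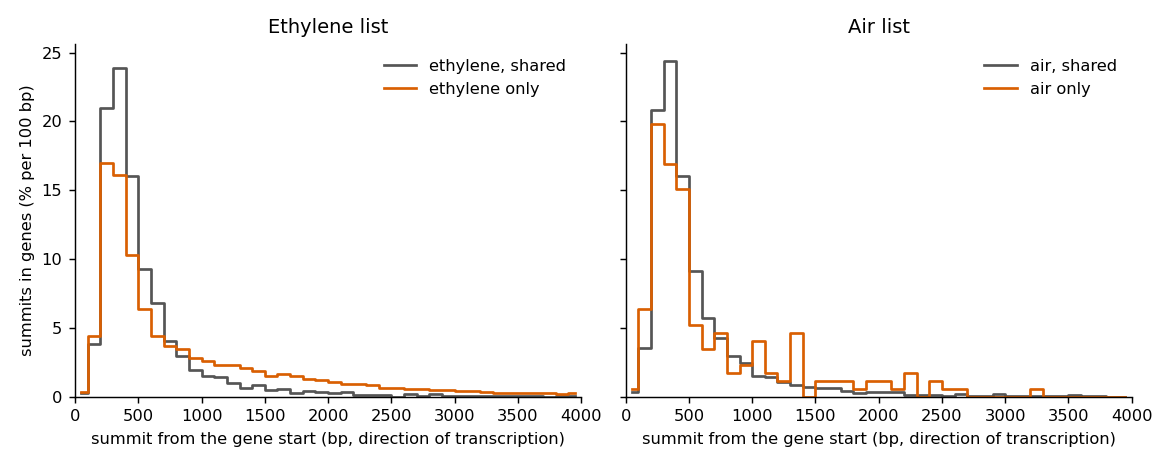
Summits inside protein-coding genes (vertical axis, % of the class per 100-bp bin) by distance from the gene start in bp, for the ethylene list (left) and the air list (right). All classes peak between 200 and 400 bp, and the ethylene-only class runs on into the gene body, with 31.1% of summits past 1 kb.

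This tail belonged to low ranks. In deciles 1 and 2 of the ethylene list, 7.98% and 7.95% of ethylene-only summits lay past 1 kb, against 8.61% and 9.63% of shared summits. From decile 3 on the share was higher in ethylene-only peaks, with 23.7% against 10.5% in decile 5 and 51.8% against 19.2% in decile 10. With both lists at 3011 peaks the order was reversed, with 7.76% of ethylene-only and 8.90% of shared summits past 1 kb, so the best ranked ethylene-only peaks sat at the gene start as shared peaks did.

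A small set of ethylene-only peaks lay further along genes that had a peak in air. Of the 12001 ethylene-only summits in genes, 774 (6.45%) were in a gene that also had an air peak, and their median distance from the gene start was 1492 bp, with 74.8% (71.6 to 77.7) past 1 kb. The other 11227 were in genes without an air peak, at a median of 489 bp, with 28.1% past 1 kb. The overlap rule bears on this contrast, since a peak at the start of a gene with an air peak is mostly shared. Ethylene peaks were also more numerous per gene: of the 11879 genes holding an ethylene summit 79.4% held 1 and 365 held at least 3, against 96.6% and 2 of the 2860 genes holding an air summit. Summits per gene were not counted at the control depth of the air list, so this difference cannot be told apart from that in control tags. The gene with most ethylene summits was AT2G03890, a phosphatidylinositol 4-kinase, with 5. In genes with several ethylene summits, the one nearest the start was at a median of 401 bp and the later ones at 1662 bp.

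The air-only peaks were few, with a median rank of 2001 in the air list against 1468 for shared air peaks. The best ranked, on At17.1, a protein of the plastid movement impaired family, was rank 116 of 3011 (429 bp, fold enrichment 3.54, −log10 P 7.09, summit at 504 bp). The others of the first 10 held ranks 410 to 677. They were on AT1G19840, a SAUR-like auxin-responsive protein, RGL3, a DELLA repressor of gibberellin signalling, emb2386, a ribosomal protein of the L19e family, AT1G05790, a class 3 lipase, TSPO, a tryptophan-rich membrane protein, AT5G60030, WRKY57, a transcription factor, TET8, a tetraspanin, and APRR2, a two-component response regulator-like protein. Of the 175 air-only peaks, 58 (33.1%) lay within 1 kb of an ethylene peak, and 135 (77.1%) had a q over 0.05, against 56.7% of shared air peaks. Their median −log10 P was 3.29, against 3.83 for shared air peaks, both called at a P threshold of 0.01.

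A peak lay on 2921 of 27444 protein-coding genes in air (10.6%), on 12110 with ethylene (44.1%), and on 6631 with ethylene at the control depth of the air list (24.2%). A total of 2802 genes had a peak in both lists, 9308 (33.9%) with ethylene and not in air, and 119 in air and not with ethylene, while 15215 had none. Air-only peaks touched 177 genes (0.645%). Peaks of decile 1 of the ethylene list lay on 1539 genes (5.61%). The share of genes with an ethylene peak grew with gene length, from 7.97% for genes of up to 500 bp to 53.9% at 2000 to 3000 bp and 57.8% over 4000 bp. In air it was highest at 2000 to 3000 bp (13.7%) and was 11.8% over 4000 bp, and at the common control depth these shares were 30.8% and 29.7%. Within 2 kb of a gene, the distance used by the study, there were peaks for 18480 genes with ethylene and 5727 in air.

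Genes of the ethylene pathway were read against these shares, from the receptors to the targets. Of the 6 receptor genes and receptor regulators, 0 had a peak in air, 5 with ethylene (83.3% against 44.1% of all genes) and 1 at the common control depth (16.7% against 24.2%), where RTE1 kept its peak and ERS1, ETR2, EIN4 and ERS2 did not. RTE1, which promotes signalling by the receptor ETR1, held the best of them, with the summit 254 bp from the gene start, at rank 4823. ERS1 had 2 peaks at ranks 8425 and 10433, EIN4 had 2 at ranks 9577 and 13615, and ETR2 and ERS2 had 1 each at ranks 11718 and 11938. ETR1 had none in either list. The receptor summits of ERS1 and ETR2 were 1590 to 2219 bp from the gene start, in coding sequence. The 6 genes had a median length of 3202 bp. Genes of 3000 to 4000 bp were at 11.7% in air, 54.4% with ethylene and 27.6% at the common control depth.

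Genes of the signalling cascade held better ranked peaks. Of the 11 genes, 3 had a peak in air (27.3% against 10.6% of all genes), 9 with ethylene (81.8% against 44.1%) and 8 at the common control depth (72.7% against 24.2%), and 4 (36.4% against 5.61% of all genes) had a peak of decile 1. CTR1, the kinase that blocks the pathway in air, had a peak in both lists at its 5′ end: rank 2936 in air (percentile 2.52) and rank 677 with ethylene (percentile 95.6). It also had 4 ethylene-only peaks further along the gene, with summits from 1393 to 4360 bp, at ranks 7996 to 11227. These 4 did not pass at the common control depth, and the ethylene peak at the 5′ end did. EIN2 itself had no peak in either list. The 11 genes had a median length of 2956 bp. Genes of 2000 to 3000 bp were at 13.7% in air, 53.9% with ethylene and 30.8% at the common control depth.

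EIN3 and EIL1, the main transcription factors of the pathway, had 3 ethylene-only peaks each, and their related gene EIL2 had 1. The best ranked were at 985 bp of EIN3 (rank 4584) and at 797 bp of EIL1 (rank 3853), and only these passed at the common control depth. EIL3 had none. EBF1 and EBF2 code for F-box proteins that send EIN3 for degradation and are themselves EIN3 targets. EBF1 held the best ranked ethylene-only peak of the cascade, 1105 bp wide (chr2:10848727-10849831, fold enrichment 3.02, −log10 P 16.71, rank 272), and another of 233 bp at rank 1562. The window of EBF1 shown above is from the former. EBF2 had 1 peak of 850 bp at rank 3901.

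ENAP1 and ENAP2, the names the study gave to the SANT domain genes AT3G11100 and AT5G05550, also had peaks. ENAP2 had a shared peak, at percentile 22.4 in air and 91.8 with ethylene, with summits at 521 and 539 bp. ENAP1 had an ethylene-only peak of 809 bp at rank 1524, with its summit at 1053 bp. XRN4, the exoribonuclease also known as EIN5, had a shared peak near its start, at 263 and 270 bp, at percentile 46.8 in air and 69.3 with ethylene. The shared peaks of this group were all within 600 bp of the gene start.

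All 16 ethylene-induced EIN3 targets on the list had an ethylene peak. The list had 4 genes with a peak in air, and 12 with one with ethylene and not in air, which is 75% against 33.9% of all genes. At the common control depth 10 of the 16 kept a peak (62.5% against 24.2%). The 16 genes had a median length of 1936 bp, and genes of 1500 to 2000 bp were at 46.1% with ethylene and 26.7% at that depth. ETR2, ERS1, ERS2, RTE1, EBF1 and EBF2 are on this list and also on the receptor or cascade list. Of these RTE1, EBF1 and EBF2 are among the 10, so the counts of the lists reuse the same peaks. The list was drawn up with results of these data known, so this is no independent evidence of a direction. ERF1, an activator of ethylene response genes, and EDF1, EDF2 and EDF4, which code for repressors with AP2 and B3 domains, were the 4 with a peak in air. Within its list, the ERF1 peak stood at percentile 29.7 in air and 46.6 with ethylene. EDF1 stood at 4.65 and 89.7, EDF2 at 84.6 and 82.1, and the best EDF4 peak at 68.2 and 94.0. The ERF1 peak did not pass at the common control depth, and those of EDF1 and EDF2 and the best of EDF4 did.

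The other targets had ethylene-only peaks. NAC6, a NAC transcription factor of leaf senescence, had 2, at 629 bp (rank 5208) and 1129 bp (rank 15235). ARGOS, which promotes organ growth and lowers ethylene sensitivity, had 1 of 541 bp at rank 4950, with its summit in the 5′ UTR. EDF3 had 1 of 827 bp at rank 6335. HLS1, needed for the apical hook, had 1 at 1655 bp of low rank (13747). PIF3, a bHLH factor of dark-grown seedlings, had 3, the widest of 1427 bp at rank 3133, and WAG2, a protein kinase of auxin transport, had 2 at ranks 9610 and 11619. Of these genes NAC6, ARGOS, EDF3 and PIF3 kept a peak at the common control depth, and HLS1 and WAG2 did not.

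Among 12 histone acetyltransferase genes, 3 had a peak in air (25.0% against 10.6% of all genes), 8 had one with ethylene (66.7% against 44.1%) and 7 at the common control depth (58.3% against 24.2%). These are long genes, with a median of 5437 bp, and of all genes over 4000 bp 57.8% had an ethylene peak, 11.8% an air peak and 29.7% one at the common control depth. The 3 with an air peak were HAG1, which codes for GCN5, HAG3 and HAM1. HAG1 had its peak at percentile 94.2 in air and 98.1 with ethylene, with summits at 400 and 376 bp. HAG3 was at percentile 83 and 88.6, and HAM1 at 96.9 and 96.4. HAM2, the near copy of HAM1, had an ethylene-only peak at rank 339 (fold enrichment 3.03), with its summit at 189 bp where that of HAM1 was at 345 bp. HAC1, HAC5 and HAC12, of the CBP family, had ethylene-only peaks with summits in the 5′ UTR, at ranks 5273, 4760 and 5364, and HAC5 had another at 1841 bp. HAF2 had 2 of low rank far into the gene, at 6954 and 8350 bp, and HAG2, HAC2, HAC4 and HAF1 had none.

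Genes on the other lists are given beside shares over all genes of 10.6% in air, 44.1% with ethylene and 24.2% at the common control depth. The light signalling and apical hook lists had median lengths of 3752 and 3100 bp, where genes of 3000 to 4000 bp were at 11.7%, 54.4% and 27.6%. The ethylene synthesis and housekeeping lists had medians of 2079 and 2518 bp, where genes of 2000 to 3000 bp were at 13.7%, 53.9% and 30.8%. PIF3 of the light signalling list, and HLS1 and WAG2 of the apical hook list, are also on the list of EIN3 targets. The ethylene synthesis genes belong to the pathway itself, so these lists are no independent reference for those above. Light signalling genes had a peak in 5 of 12 in air (41.7%) and in 12 of 12 with ethylene, and 7 of 12 at the common control depth (58.3%). HY5 entered both ethylene counts through a peak that shared only 1 bp with the 3′ end of the gene. The summit of that peak lay outside HY5, 1904 bp from the start of a gene of 1739 bp. Ethylene synthesis genes had a peak in 0 of 13 in air and 7 with ethylene (53.8%), of which 1 (7.69%) passed at the common control depth, that of ACO4, an ACC oxidase (632 bp, rank 488, summit at 1092 bp). Apical hook and auxin genes had 1, 8 and 4 of 12 (8.33%, 66.7% and 33.3%), in air near the share of all genes. Housekeeping genes had 3, 14 and 9 of 18 (16.7%, 77.8% and 50%), and 11 of the 18 (61.1% against 33.9% of all genes) had a peak with ethylene and not in air. Nuclear photosynthesis genes had 2, 8 and 1 of 18 (11.1%, 44.4% and 5.56%), in air and with ethylene at about the share of all genes.

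With ethylene, 1 of 14 seed storage and maturation genes (7.14%) and 0 of 11 floral organ identity genes had a peak, against 44.1% of all genes. In air 0 genes of both lists had one, against 10.6% of all genes. The seed genes SESA1 to SESA5 are 500 to 1000 bp long, where 19.2% of genes had an ethylene peak. Floral genes had a median of 2920 bp, and genes of 2000 to 3000 bp were at 53.9%. A missing peak does not say that the mark was absent, so these counts cannot check the labelled tissue. Of all 134 listed genes, 21 had a peak in air (15.7%), 79 with ethylene (59.0%) and 44 at the common control depth (32.8%), and 0 had one in air only. Listed genes had a median length of 2513 bp against 2078 bp over all genes. Chosen after its values were seen, PIF5 was the listed gene with an air-only peak: that peak had its summit at 2289 bp (air rank 1096), while its other air peak, at 1503 bp, was shared.

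**Figure D5:**
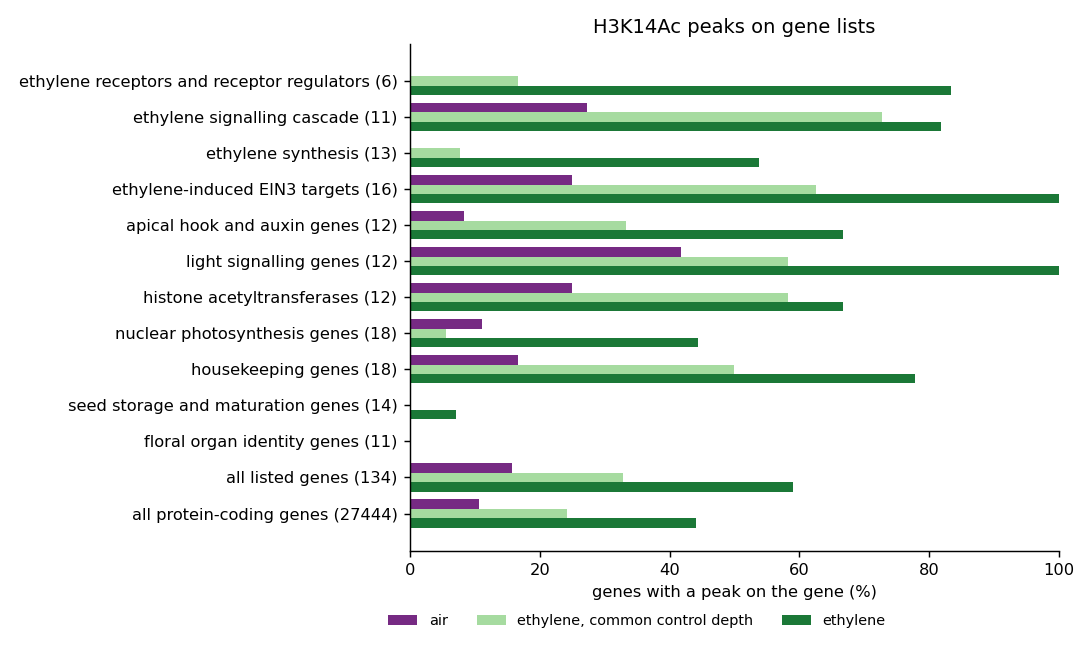
Share of genes with an H3K14Ac peak on the gene (horizontal axis, %) for each gene list, with its number of genes in brackets, in air, with ethylene, and with ethylene at the control depth of the air list. All protein-coding genes are at 10.6%, 44.1% and 24.2%, the EIN3 targets at 25.0%, 100% and 62.5%, and the floral genes at 0%.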

How the data were processed

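Chromatin of dark-grown seedlings was immunoprecipitated with an H3K14Ac antibody or IgG, and 1 library was sequenced per treatment. Per the labels and the study's methods, the authors mapped reads to TAIR10 with Bowtie2 2.1.0, removed duplicates with SAMtools and called peaks with MACS2 2.1.0.20150603, with a 200-bp fragment and a P threshold of 0.01. The deposited lists give a pileup signal at each summit, scaled to the smaller library, a fold enrichment (a ratio over local background), and −log10 of P and q. The file headers say that no q was computed, but the deposited −log10 q column is filled and was used as a score. Control tags were taken from the file headers. Those of the Col-0 air control are far fewer than the uniquely mapped reads the study's supplement lists for its Col-0 air IgG library, where that library is deeper than the ethylene one, and the cause was not tested.

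Peaks of the 2 lists were matched where they had 1 bp or more in common. The local background came from pileup and fold enrichment, and a Poisson −log10 P computed from it differed from the deposited one by a median of 0.000823 in air and 0.000589 with ethylene. Genes and sequences came from RefSeq TAIR10.1, whose chromosomes 1 to 5 have TAIR10 coordinates (27444 protein-coding genes; all 134 listed genes matched). Where classes overlapped, coding sequence came before 5′ UTR, 3′ UTR, intron, other gene, 1 kb upstream and 1 kb downstream. Named genes were those at the 10 smallest P and 5 widest peaks of each class and at the 5 largest differences in percentile each way, and the members of the ethylene and acetyltransferase lists. Members and lists were chosen with earlier results of these data known. Alternatives tried were a stricter q (0.05) or fold enrichment (2), lists of equal length, a common control depth, an overlap of 50% or a summit inside the other peak, peaks merged within 200 bp, rank by fold enrichment, peak centres, and gene windows. The overlap code was tested on 1454 simulated peaks, with 0 mismatches. Scripts ran in Python 3.11.15 with pandas 2.3.3, scipy 1.17.1, matplotlib 3.10.9 and numpy 2.4.6.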

Additional observations from a re-analysis of the deposited data

Results flagged for a closer look

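The number of H3K14Ac peaks moved in opposite directions in the 2 genotypes. Ethylene peaks outnumbered air peaks by a ratio of 5.09 in Col-0 (15317 against 3011) and the same ratio was 0.847 in ein2-5 (7932 against 9363), a mutant that lacks EIN2 function. The difference was not tested, since each condition has 1 list, and the lists are unlike: each ein2-5 list pools 2 replicate libraries and each Col-0 list is 1 library. Control tags differed between all 4 lists, at 10479732 with ethylene and 2438541 in air for Col-0, and at 4333059 and 13683768 for ein2-5, so in both genotypes the longer list had the deeper control. The part of control depth in these ratios was not tested. At the control depth of the air list the Col-0 ratio was 2.30.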

How the results depend on the processing

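Of 59 recomputed values, 18 stayed within the interval of the reported value or, for a count, within 1.5 times it. The reversal was the share of in-gene summits past 1 kb with lists of equal length, 7.76% of ethylene-only against 8.9% of shared peaks (31.1% against 9.88% as deposited). Values for ethylene peaks come before those for air peaks. The unshared share (81.8% and 5.81%) was 91.6% and 4.1% with a q under 0.05, 75.5% and 30.1% with a fold enrichment of at least 2, 54.5% and 53% with lists of equal length, 68.4% and 25.1% at the common control depth, 86.4% and 7.01% with an overlap of 50% of the peak, and 83% and 6.87% with the summit inside the other peak. For ethylene it was 81.2% after merging. The share in deciles 1 and 10 of the ethylene list (45.5% and 95%) was 67.9% and 98.7% with the q limit, 37.2% and 88.2% at the common control depth, and 56% and 90.6% when ranked by fold enrichment, and decile 10 was at 98.3% with the fold limit. The median width of ethylene-only peaks (307 bp) was 323, 351, 413 and 365 bp with the q limit, the fold limit, equal length and the common depth, and 314 bp after merging, always below that of shared peaks. Their summits lay past 1 kb in 27.7%, 18.1% and 13.5% with the q limit, the fold limit and the common depth. Coding sequence held 77.5%, 80.9% and 73.4% of them with the q limit, equal length and peak centres. Genes within 2 kb (18480 and 5727) were 2703 in air with the q limit, 6023 and 11788 with ethylene at equal length and the common depth, and 12110 and 2921 when the peak had to touch the gene. Listed genes with a peak (79 and 21) were 6 in air with the q limit, and with ethylene 44 with the fold limit, 20 at equal length and 44 at the common depth. The cause of these shifts was not tested. No paired analysis was possible because Col-0 H3K14Ac has 1 library per treatment, and leaving out a library was not possible for the same reason.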

Other observations

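Many ethylene-only peaks lay where H3K14Ac was called in ein2-5 seedlings, whose IgG controls are other libraries than those of Col-0. Of the 12534 ethylene-only peaks, 36.6% (35.8 to 37.5) overlapped an ein2-5 H3K14Ac peak in air and 34.7% (33.9 to 35.5) one with ethylene, and 49.0% overlapped at least 1 of them. For shared ethylene peaks these shares were 83.4% and 81.2%. In decile 1 of the ethylene list, 80.6% of ethylene-only peaks overlapped an ein2-5 air peak and 79.3% an ein2-5 ethylene peak, and in decile 10 these shares were 20% and 14.5%. Other acetylation marks overlapped as well: 40.3% of ethylene-only peaks met a Col-0 H3K9Ac air peak and 70.4% an H3K9Ac ethylene peak, and 13.6% met a Col-0 H3K23Ac air peak and 59.3% an H3K23Ac ethylene peak. In ein2-5, 46.4% met an H3K23Ac air peak and 44.0% an H3K23Ac ethylene peak. For shared ethylene peaks these 6 shares lay between 84.5% and 98.3%. The Col-0 lists of each treatment share 1 IgG control with the H3K14Ac list of that treatment. A total of 2629 ethylene-only peaks (21%) overlapped no peak of the other 8 lists. This was not counted for shared ethylene peaks, of which 98.3% met a Col-0 H3K9Ac ethylene peak. Overlap with the ein2-5 H3K14Ac lists fell with rank. The 21% was not counted by rank, so whether it differs from that of shared peaks of like rank was not tested.

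Gene families, found by the words of the RefSeq product and chosen after the peaks were seen, are given beside the share of all genes (44.1% with ethylene, 10.6% in air) and of genes of like length. Ribosomal protein genes had an ethylene peak in 211 of 348 cases (60.6%) and an air peak in 56 (16.1%). Their median length was 1564 bp, and genes of 1500 to 2000 bp were at 46.1% and 12%. Protein phosphatase 2C genes, which include regulators of abscisic acid signalling, had one in 44 of 65 (67.7%) and 8 (12.3%), at a median of 2457 bp, where genes of 2000 to 3000 bp were at 53.9% and 13.7%. Histone genes, with a median of 990 bp, had one in 28 of 52 (53.8%) and 11 (21.2%), where genes of 500 to 1000 bp were at 19.2% and 4.43%. SAUR-like genes, with a median of 812 bp, were close to that length class, with 14 of 78 (17.9%) and 3 (3.85%). Defensin-like genes, with a median of 550 bp, had 4 of 193 (2.07%) and 0. F-box genes, with a median of 1366 bp, had 142 of 652 (21.8%) and 26 (3.99%), where genes of 1000 to 1500 bp were at 33.5% and 9.06%. WRKY genes were near the level of all genes, with 35 of 72 (48.6%) and 7 (9.72%). At the common control depth, 35.6% of ribosomal protein genes had a peak, where their length class was at 26.7%. Protein phosphatase 2C genes were at 33.8% (length class 30.8%) and histone genes at 32.7% (9.88%). SAUR-like genes were at 6.41% (9.88%) and F-box genes at 9.05% (18.3%). Defensin-like genes were at 0% and WRKY genes at 19.4%, against 24.2% of all genes. Gene-poor regions, 100-kb windows with under 25% of bases in protein-coding genes, make up 15.6% of the genome and held 2.66% of ethylene-only and 2.01% of shared ethylene peaks.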
